A study of Arabidopsis thaliana with 20 samples.

Results

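ARR12 is a type-B response regulator of Arabidopsis thaliana, and its loss was examined here in roots that carried ARR10 and in roots that lacked it. The 8 arrays were chosen by genotype and make a 2x2 set of untreated roots with 2 arrays each of arr12, arr10/12, WT, and arr10, out of 20 arrays in the study. The ARR12 effect is the difference between the 4 arrays without ARR12 (arr12 and arr10/12) and the 4 arrays with it (WT and arr10), with the ARR10 state and the replicate number as blocks. All plants were Col-0 seedlings of 10 days, grown in continuous light, and the roots were cut near the hypocotyl. Each mutation is represented by 1 T-DNA insertion allele, arr10-5 and arr12-1. The arr10 and arr12 lines were isolated by the authors, whereas arr10/12 seeds came from another laboratory, so in the comparison of arr10/12 with arr10 the source of the seeds and the loss of ARR12 cannot be told apart.

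Cytokinin, a hormone that slows cell division at the root tip and promotes differentiation there, is perceived by membrane histidine kinases that pass a phosphate through shuttle proteins to the type-B response regulators in the nucleus. Type-B regulators such as ARR1, ARR10, and ARR12 are DNA-binding transcription factors that switch on target genes. Type-A response regulators are among the earliest of these targets and lack the DNA-binding part, and they act back on the pathway to dampen it.

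The arrays measure the signal of probes, and values below are log2 intensities after quantile normalization unless a fold is named. A probe was tested with limma if both arrays of any of the 4 genotypes gave a signal well above background, which held for 33195 probes. Calls rest on p-values adjusted over all of these by the Benjamini-Hochberg method, with a threshold of 0.05. A gene could be named for 2011 of these probes, nearly all of them genes that the study had sorted as lower in 1 or more of its mutants, so a count of lower named genes is not independent evidence of direction. On the 8 arrays the median log2 intensity before normalization was 8.75 to 9.59, and 73.8% to 78.8% of the probes were well above background. Replicate 1 of every genotype lay on 1 slide and replicate 2 on another, and each genotype held the same position on both slides, so that array position and genotype cannot be told apart. The arr12 arrays stood apart from each other. Spearman's rho between them was 0.9898, whereas arr12 replicate 1 reached 0.9968 with arr10 replicate 1 and arr12 replicate 2 reached 0.9961 with arr10/12 replicate 2, within a range of 0.9892 to 0.9968 over all pairs of the 8 arrays.

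Loss of ARR12 was followed by a call for 3 probes, all lower, and by none that was higher. These 3 probes were the one for ARR12 and the probes A_84_P10661 and A_84_P767684, for which no gene could be named. The 3 calls are 0.00904% of the 33195 probes. At an unadjusted p under 0.05 there were 1677 lower probes (5.05%) and 1362 higher ones (4.1%). The median standard error of the ARR12 effect was 0.10 on the log2 scale.

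The probe of ARR12 (AT2G25180) shows the loss on every array of the set. It read 4.56 and 5.34 in arr12 and 5.29 and 5.74 in arr10/12, against 11.79 and 11.72 in WT and 12.19 and 11.96 in arr10. The 2 sets of arrays were far apart, with a log2 fold change of −6.68 (SE 0.18, adjusted p = 0.000145 from limma). The signal in arr12 and arr10/12 was still well above background on all 4 arrays. The log2 fold change was −6.81 in arr12 against WT and −6.56 in arr10/12 against arr10, and the second differed from the first by 0.25 (95% interval −0.65 to 1.14, unadjusted p = 0.525 from limma). Outside the set, ARR12 read 4.78 and 5.46 in arr1/12, against 11.95 and 11.95 in arr1.

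A_84_P10661 followed the ARR12 genotype in the same way. It read 5.95 and 6.43 in arr12 and 5.66 and 6.08 in arr10/12, against 11.72 and 11.65 in WT and 12.13 and 12.01 in arr10, a log2 fold change of −5.85 (SE 0.18, adjusted p = 0.000238 from limma). Its signal was also low in the other genotypes that lack ARR12, with 6.04 and 5.50 in arr1/12 and 5.00 and 4.65 in arr1/10/12, against 11.94 and 12.05 in arr1 and 11.95 and 12.01 in arr1/10. ARR12 and A_84_P10661 were the only ones of the 3 called probes whose 8 untreated arrays without ARR12 all lay below the 8 arrays with it, beside 0.0243% of all probes. In mock-treated WT A_84_P10661 read 11.91 and 11.93, and the ARR12 probe 11.84 and 11.87. In CK-treated WT they read 13.01 and 12.86, and 12.8 and 12.83. Whether A_84_P10661 measures ARR12 itself was not tested.

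A_84_P767684 did not keep this pattern outside the set. It was not well above background on any array of arr12 or arr10/12, with a mean of 2.28, and read 5.50 and 5.62 in WT and 6.54 and 6.22 in arr10. Measured against the lowest signal that counts as well above background, it was at least 6.06-fold lower without ARR12 (adjusted p = 0.00122 from limma), although it was tested only through the genotypes where it is high. In arr1/10, which carries ARR12, it was at 2.18 and 2.17, and in arr1/10/12, which lacks ARR12, it was at 8.22 and 7.73.

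**Figure D1:**
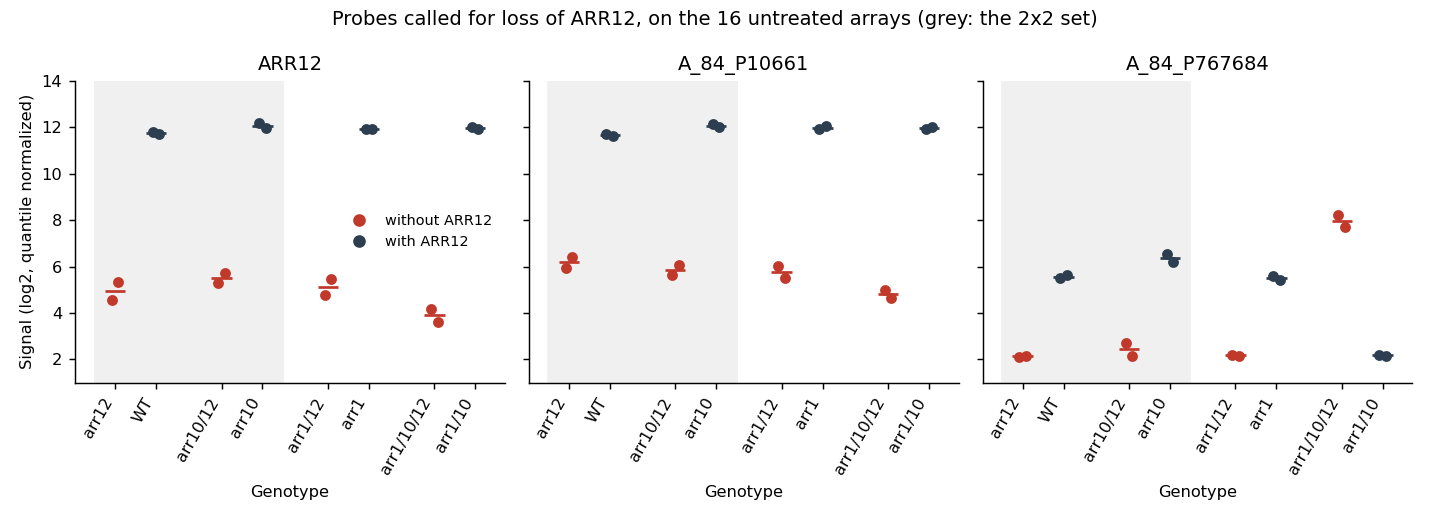
Log2 signal (y axis) of the 3 probes called for loss of ARR12, by genotype (x axis), with a point for each array and a line for the mean of 2 arrays. The grey area holds the 8 arrays of the 2x2 set, and ARR12 and A_84_P10661 are low in all 4 genotypes without ARR12, whereas A_84_P767684 is at 8.22 and 7.73 in arr1/10/12 and at 2.18 and 2.17 in arr1/10.

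Of the other type-B regulators, ARR10 and ARR1 did not pass the test. ARR10 (AT4G31920) read 13.50 and 13.65 in arr12, against 13.59 and 13.25 in WT, and 7.18 and 7.47 in arr10/12, against 7.56 and 8.57 in arr10. Its signal therefore followed the ARR10 genotype, with an ARR12 effect of −0.30 (SE 0.26, adjusted p = 0.651 from limma). ARR1 (AT3G16857) read 12.62 and 12.39 in arr12 and 12.26 and 12.28 in arr10/12, against 11.99 and 12.01 in WT and 12.29 and 12.39 in arr10, an effect of 0.22 (SE 0.14, adjusted p = 0.56).

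The type-A regulators were lower without ARR12 by small amounts, and none of them passed the test across all probes. A probe could be named for 8 of the 10 genes. All 8 had a negative ARR12 effect, as did 50.8% of all tested probes. The study had sorted all 8 genes as lower in mutants, so this count is not independent evidence of direction. The median effect of the 8 was −0.22 beside 0 over all tested probes. Of the 8, 3 were lower at an unadjusted p under 0.05, beside 5.05% of all tested probes. The same median was −0.33 in arr12 against WT and −0.19 in arr10/12 against arr10, and 5 of the 8 were lower in both, beside 27% of all tested probes. Over 13 alternative settings the number with a negative effect was 7 or 8.

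ARR17 and ARR16 differed most among the type-A genes. ARR17 (AT3G56380) read 5.36 and 3.80 in arr12 and 4.86 and 4.0 in arr10/12, against 5.79 and 5.43 in WT and 6.0 and 5.77 in arr10. The arrays without ARR12 all lay below those with it, although only 1 of 2 arrays in arr12 and 1 of 2 in arr10/12 was well above background. The ARR12 effect was −1.24 (95% interval −1.78 to −0.70, adjusted p = 0.527 from limma), but −0.78 on replicate 1 arrays alone and −0.56 with the authors' value table, where ARR16 had −0.72. ARR16 (AT2G40670) read 7.56 and 6.95 in arr12 and 6.94 and 6.78 in arr10/12, against 7.91 and 8.01 in WT and 7.81 and 8.14 in arr10. Here too the arrays did not overlap, and the effect was −0.91 (95% interval −1.31 to −0.51, adjusted p = 0.527). Among all tested probes with a value on every array, 1.65% had their 4 arrays without ARR12 below the 4 with it.

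ARR6 (AT5G62920), the third type-A gene with an unadjusted p under 0.05, had an effect of −0.27 (SE 0.07, unadjusted p = 0.00518, adjusted p = 0.527), and was lower by 0.28 in arr12 against WT and by 0.27 in arr10/12 against arr10. For the other 5 genes the effect ran from −0.24 in ARR7 (AT1G19050) to −0.02 in ARR3 (AT1G59940). ARR5 and ARR7 differed more in arr12 against WT, by −0.33 and −0.44, than in arr10/12 against arr10, by −0.05 and −0.05. The differences between both states had unadjusted p of 0.119 and 0.0973 from limma and did not pass the test. For ARR7 all 6 WT arrays of the study lay above all 14 mutant arrays, those with ARR12 included, beside 0.222% of all probes. The closest arrays were nearly level, at 11.58 in untreated WT and 11.57 in arr10.

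The arrays of arr1/12 and arr1 lie outside the 2x2 set and give further values for the type-A genes. The study had sorted its genes on these arrays too, so they are not independent of how the genes came to be named. The arrays labelled arr1 kept the ARR1 signal (12.27 and 12.52, against 11.99 and 12.01 in WT), whereas arr1/12 arrays did not (7.83 and 7.94). In this comparison, loss of ARR1 and of ARR12 cannot be told apart. Of the 8 type-A genes, 7 were lower in arr1/12 than in arr1, and 4 of these were called. Of all 33834 probes tested in that comparison, 50.3% were lower and 0.6% were called lower. ARR16 was at 3.37 and 2.43 in arr1/12, where it was not well above background, against 6.95 and 7.44 in arr1. ARR17 was at 2.35 and 2.29 in arr1/12, also not well above background, against 5.54 and 4.82 in arr1. The other called genes were ARR15 (−1.36, adjusted p = 0.0398) and ARR4 (−0.48, adjusted p = 0.0401).

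**Figure D2:**
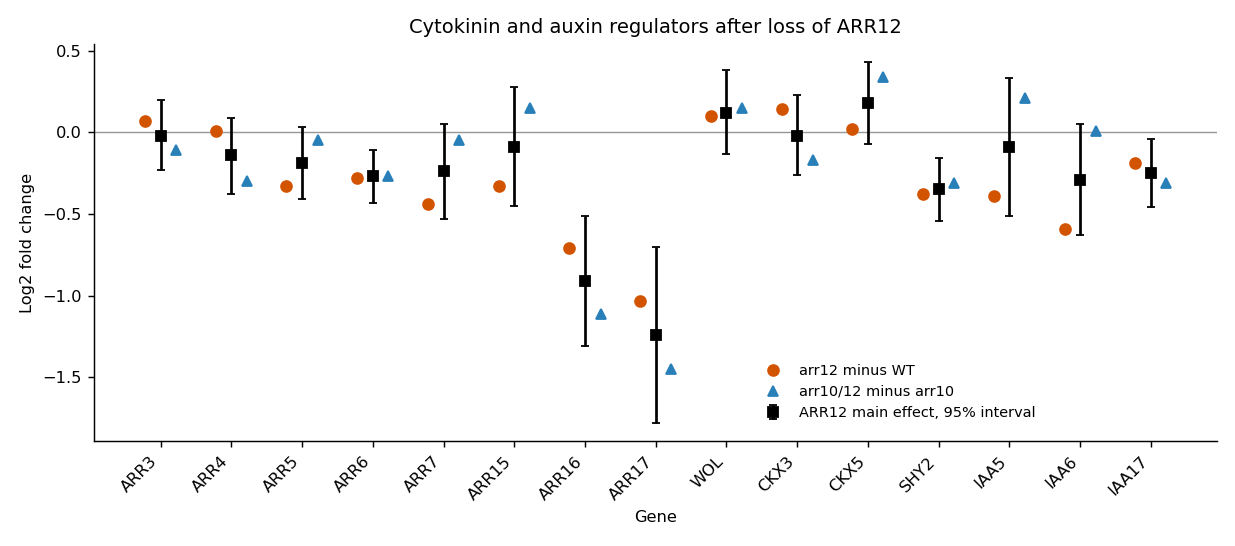
Log2 fold changes (y axis) of type-A response regulators, the receptor WOL, cytokinin oxidases, and auxin repressors (x axis). Black squares are the ARR12 effect over both ARR10 states with its 95% interval, circles are arr12 minus WT, and triangles are arr10/12 minus arr10, and the largest differences are those of ARR17 (−1.24) and ARR16 (−0.91).

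Among the genes upstream of the response regulators few could be named. WOL, a cytokinin receptor also known as CRE1 or AHK4, had an effect of 0.12 (SE 0.11), CKX3 of −0.02 (SE 0.10), and CKX5 of 0.18 (SE 0.11). CKX genes encode oxidases that degrade cytokinin. None of these 3 had an unadjusted p under 0.05, and no cytokinin response factor could be named. The auxin repressors, which hold auxin responses off until auxin triggers their breakdown, had a negative ARR12 effect in 4 of 4 tested genes, beside 50.8% of all probes, and 2 had an unadjusted p under 0.05, beside 5.05% of all probes that were lower at that p. None was called, and in arr10/12 against arr10 only 2 were below 0, with 0.21 for IAA5 and 0.01 for IAA6. SHY2 (AT1G04240), a repressor that type-B regulators are known to switch on in the root, read 10.54 and 10.89 in arr12 and 10.57 and 10.71 in arr10/12, against 11.09 and 11.11 in WT and 10.85 and 11.05 in arr10. The higher arr12 array lay just above the lower arr10 array, and the effect was −0.35 (SE 0.08, adjusted p = 0.527 from limma). Both untreated WT arrays of SHY2 lay above all 14 mutant arrays, those with ARR12 included, beside 1.95% of all probes. For IAA6 all 6 WT arrays of the study did, beside 0.222%. IAA17 (AT1G04250) had an effect of −0.25 (SE 0.09, adjusted p = 0.527), and its highest array without ARR12 was level with its lowest arrays with it, at 13.55.

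Genes of the response to water deficit, cold, and heat did not pass the test. Of 5 tested genes for water deficit and cold, 3 were lower at an unadjusted p under 0.05, beside 5.05% of all probes, and the median ARR12 effect was −0.43. The other 2 went opposite ways in both states, with −0.45 in arr12 against WT and 0.44 in arr10/12 against arr10 for HB12, and 0.56 and −1.28 for COR15A. DREB2A (AT5G05410), a transcription factor of the drought response, read 9.48 and 9.56 in arr12 and 9.43 and 9.78 in arr10/12, against 10.13 and 10.11 in WT and 9.78 and 9.95 in arr10. The highest array without ARR12 and the lowest with it were at nearly the same level, and the effect was −0.43 (SE 0.11, adjusted p = 0.527). The others at this p were CBF2 (−0.65, SE 0.23) and RD26 (−0.45, SE 0.12), transcription factors of the cold and the dehydration response. All 4 heat response genes had a negative ARR12 effect, with a median of −0.61 in arr12 against WT and −0.14 in arr10/12 against arr10. Only 2 of them were below 0 in arr10/12 against arr10, where the small heat shock protein genes HSP17.6A and HSP17.6C had 0.00 and 0.23, against −0.93 and −0.63 in arr12 against WT, and the difference between both states did not pass the test (adjusted p = 0.18 each). MBF1C (AT3G24500), a transcriptional coactivator of heat tolerance, had an effect of −0.56 (SE 0.14, adjusted p = 0.527).

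Tissue markers differed in level between genotypes, and none of them passed the test in any comparison of the set. EXPA7, EXPA18, and RSL4, which mark growing root hairs, were the 3 of 13 root markers that could be named, and all 3 were well above background on every array. They had differences of −0.70, −0.71, and −0.44 in arr10/12 against arr10, and of 0.16, 0.34, and −0.05 in arr12 against WT. Their summed linear signal was 17200 to 18400 in arr10/12, against 25600 to 30400 in arr10, and 22700 to 29700 in arr12, against 19500 to 26400 in WT. The green tissue markers LHB1B1, LHCA3, and PSAH1, which serve photosynthesis and are the 3 of 14 that could be named, were well above background too, and their summed signal was 8070 to 9980 in arr10/12, against 9950 to 11100 in arr10, and 11000 to 11800 in arr12, against 7990 to 9090 in WT. The green sum in arr10/12 thus overlapped that in WT. The part of tissue composition in the results was not tested, and in these roots fewer cells of a type and less RNA per cell cannot be told apart.

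Below the 3 calls, the named genes with the lowest p were all lower without ARR12. The 20 of them with the lowest unadjusted p besides ARR12 were picked after their values were seen, and are given as a description. Their effects ran from −1.62 to −0.38 and their adjusted p from 0.125 to 0.527. All 20 were lower in both ARR10 states, beside 27% of all probes, and on both slides. A pick by low p over the same arrays favours such agreement, and nearly all named genes had been sorted as lower by the study. The arrays without ARR12 all lay below those with it for 15 of them, beside 1.65% of all probes, but low overlap and low p come from the same arrays. With the authors' value table, which has no background subtraction, the effect was over 1.5 times smaller for 7 of the 20. AT1G31920, a pentatricopeptide repeat protein, had the lowest p. It read 4.84 and 4.80 in arr12 and 4.34 and 4.41 in arr10/12, against 5.56 and 5.78 in WT and 5.21 and 5.18 in arr10, an effect of −0.83 (SE 0.08, adjusted p = 0.125 from limma), and it was not well above background in arr10/12. With the authors' value table the effect was −0.39. In arr1/10/12, which also lacks ARR12, AT1G31920 was high, at 8.59 and 7.70, against 5.19 and 5.15 in arr1/10.

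The gene with the largest of these differences was PUP2 (AT2G33750), of the purine permease family, some members of which carry cytokinins in Arabidopsis. It read 5.02 and 4.53 in arr12 and 4.52 and 4.77 in arr10/12, against 5.97 and 6.21 in WT and 6.37 and 6.75 in arr10. Only 1 of the 4 arrays without ARR12 was well above background, and the effect was −1.62 (SE 0.19, adjusted p = 0.284), or −0.74 with the authors' value table. Outside the set PUP2 did not follow ARR12, with 4.36 and 6.2 in arr1/12, against 5.24 and 5.64 in arr1, and 8.56 and 9.18 in arr1/10/12, against 6.29 and 4.51 in arr1/10. PUP2 was tested only through WT and arr10, where it is high. Without arr12 replicate 1, the brightest of its arrays without ARR12, the effect was −1.84.

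CYCP4;1 (AT2G44740), a P-type cyclin, had nearly the same difference in both states. It read 8.96 and 9.13 in arr12 and 9.02 and 9.21 in arr10/12, against 9.67 and 9.85 in WT and 9.87 and 9.78 in arr10. The effect of −0.71 (SE 0.08, adjusted p = 0.284 from limma) was −0.71 in each state. Outside the set CYCP4;1 was not lower in arr1/12, with 9.78 and 9.9, against 9.6 and 9.79 in arr1. It was lower in arr1/10/12, with 7.94 and 7.71, against 9.7 and 9.93 in arr1/10. cPT4 (AT5G58770), a cis-prenyltransferase, read 11.82 and 11.92 in arr12 and 11.47 and 11.85 in arr10/12, against 12.26 and 12.40 in WT and 11.95 and 12.31 in arr10, an effect of −0.47 (SE 0.08, adjusted p = 0.527). It was the only one of the 20 whose 8 untreated arrays without ARR12 all lay below the 8 with it, beside 0.0243% of all probes. Outside the set cPT4 read 11.85 and 11.79 in arr1/12 and 10.96 and 11.20 in arr1/10/12, against 12.15 and 12.30 in arr1 and 11.98 and 12.25 in arr1/10.

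The rest of the 20 are of mixed function. They include CLE1 (−0.63, SE 0.09), a precursor of a small signalling peptide, D27 (−0.59, SE 0.09), an isomerase of strigolactone synthesis, the pectinesterase AT2G36710 (−0.89, SE 0.13), the glutaredoxin AT2G30540 (−0.92, SE 0.12), UGT78D2 (−0.38, SE 0.07), which adds glucose to flavonoids, and CBL8 (−0.80, SE 0.15), a calcium sensor. In arr1/12 against arr1, 16 of the 20 were lower, beside 50.3% of all probes tested there. Of the 20, 3 were called, all lower, beside 0.6% of those probes that were called lower. The study had sorted its genes on the arr1/12 arrays too, so these counts are not independent of how the genes came to be named. The 3 were ARR16, ARR17, and AT5G27260, a protein of unknown function, which read 4.89 and 4.51 in arr1/12 and was not well above background there, against 6.07 and 5.99 in arr1. AT2G30540 went the other way there, with 6.67 and 6.88 in arr1/12, against 6.01 and 5.66 in arr1 (adjusted p = 0.0921).

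**Figure D3:**
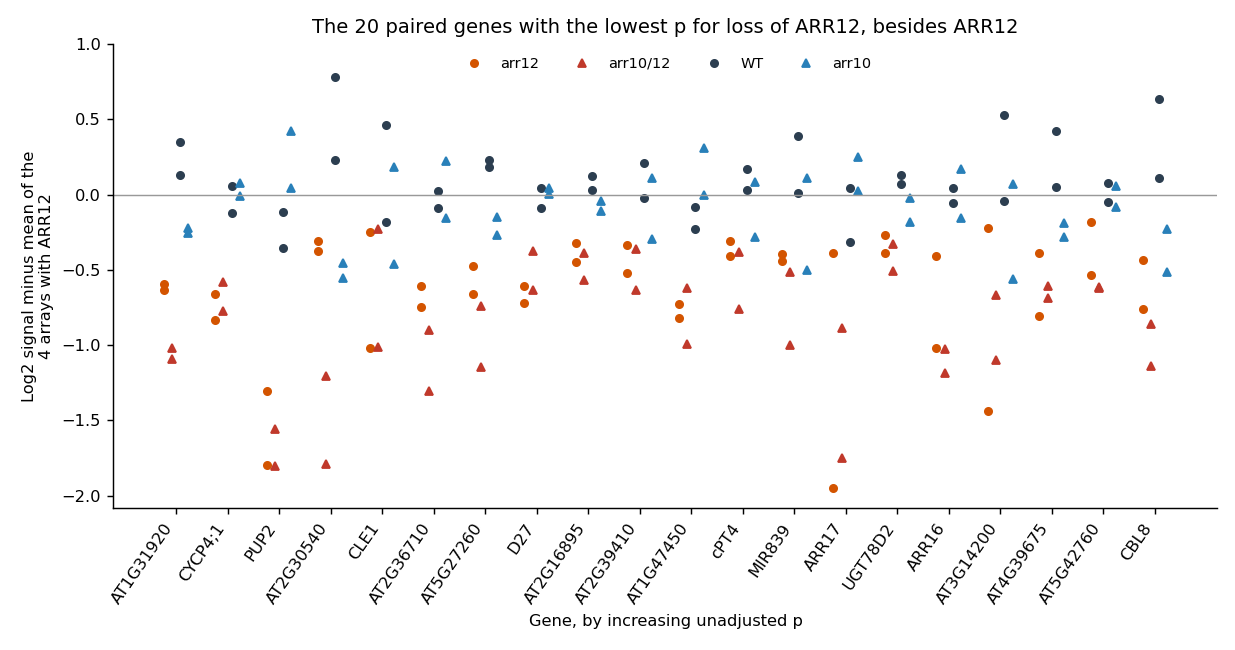
Log2 signal of each of the 8 arrays minus the mean of the 4 arrays with ARR12 (y axis) for the 20 named genes with the lowest unadjusted p besides ARR12 (x axis). For 15 of the 20 genes all arr12 and arr10/12 points lie below all WT and arr10 points.

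The rule that named the probes with the largest differences of any kind also named some that rest on single arrays. AT1G18540, a ribosomal protein gene, read 16.10 and 2.52 in arr12, 16.50 and 16.57 in arr10/12, 16.37 and 16.23 in WT, and 16.26 and 16.16 in arr10, so that its effect of −3.33 (SE 2.67) came from arr12 replicate 2 alone. emb2204 (AT1G22090) was not well above background on any array of arr12 or arr10/12, and read 6.46 and 5.40 in WT and 6.75 and 2.27 in arr10. It was at least 3.60-fold lower without ARR12 (adjusted p = 0.527 from limma), but it was tested only through WT, where it is high. Within the set its only dim array with ARR12 was arr10 replicate 2, and without that array the fitted effect was −3.91. Outside the set emb2204 was dim on further arrays that carry ARR12, with 4.26 and 2.27 in arr1 and 2.35 and 2.35 in arr1/10. Replicates of the same group also differed widely, with 7.43 and 2.3 in mock-treated WT and 2.28 and 6.85 in CK-treated WT.

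The genes around ARR12 were looked at because a T-DNA line can differ from WT near its insertion. Of the named genes within 100 genes of ARR12 on chromosome 2, by the order in the RefSeq annotation of TAIR10.1, 19 were tested with ARR12 among them, and only ARR12 was called. At an unadjusted p under 0.05 there were 3 others, beside 5.05% of all tested probes that were lower and 4.1% that were higher at that p. MOT1 (AT2G25680), a molybdate transporter, was lower by 0.44 and WRKY17 (AT2G24570), a transcription factor, by 0.30, and AT2G25150, a transferase, was higher by 0.35, each with an adjusted p of 0.527. Both untreated WT arrays of MOT1 lay above all 14 mutant arrays, those with ARR12 included, beside 1.95% of all probes. The closest were nearly level, at 10.67 in WT and 10.64 in arr10.

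The comparison within each ARR10 state gave more calls than the ARR12 effect over both, and the calls were almost all different probes. In arr12 against WT 16 probes were called (0.0482%), with 6 higher (0.0181%) and 10 lower (0.0301%). In arr10/12 against arr10 26 probes were called (0.0783%), with 17 higher (0.0512%) and 9 lower (0.0271%). These counts moved with single arrays, to 3 higher and 2 lower in arr12 against WT without WT replicate 1 and to 2 higher and 2 lower in arr10/12 against arr10 without arr10 replicate 2. The 3 probes called for the ARR12 effect were called in both states, and these were the only probes that both comparisons shared. The comparisons have no array in common. Across all 33195 probes their log2 fold changes had a Pearson's r of −0.03 and a Spearman's rho of −0.01, as a description over probes that share their arrays, and 50.4% of the probes had the same direction in both.

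**Figure D4:**
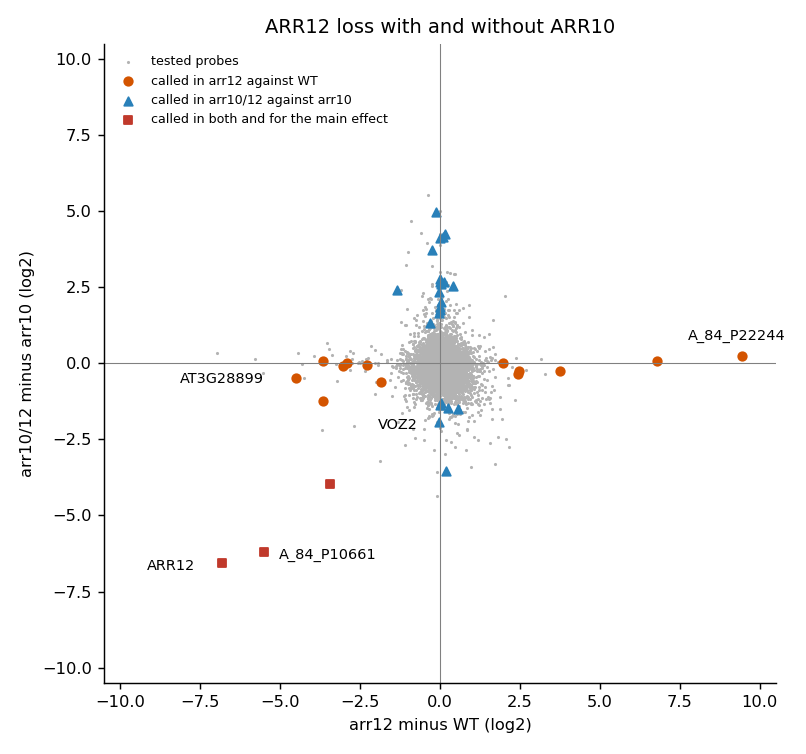
Log2 fold change in arr10/12 minus arr10 (y axis) against that in arr12 minus WT (x axis) for the 33195 tested probes. The 3 probes called in both states lie at the lower left, and most of the other called probes lie close to 1 of the axes.

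The calls in arr12 against WT were mainly probes on which WT differed from every mutant. For 9 of the 16 both untreated WT arrays lay outside the range of all 14 mutant arrays, beside 5.04% of all probes, and for 7 of these all 6 WT arrays did, mock-treated and CK-treated ones included, beside 0.614% of all probes. These calls rest on the same WT arrays. AT3G28899, a gene of unknown function, read 6.08 and 5.48 in arr12, against 10.39 and 10.19 in WT, a log2 fold change of −4.51 (SE 0.21, adjusted p = 0.00523 from limma). It read 5.65 and 5.50 in arr10/12, against 5.89 and 6.21 in arr10, and was at 9.78 and 9.89 in mock-treated WT. AT5G24240 read 8.66 and 8.38 in arr12, against 11.57 and 11.54 in WT (−3.04, SE 0.16, adjusted p = 0.00819), and 8.40 and 8.52 in arr10/12, against 8.38 and 8.75 in arr10. SADHU3-2 (AT3G42658), a non-coding retrotransposon, read 7.97 and 7.81 in arr12, against 11.57 and 11.53 in WT (−3.66, SE 0.23, adjusted p = 0.0151), and 6.95 and 7.70 in arr10/12, against 8.50 and 8.61 in arr10 (−1.24, adjusted p = 0.233), so that within the set its arrays without ARR12 also lay below those with it.

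The unnamed probe A_84_P22244 had the reverse pattern. It read 12.22 and 12.54 in arr12 and 12.44 and 12.57 in arr10/12, against 3.32 and 2.51 in WT and 12.20 and 12.34 in arr10. In WT it was not well above background, and it was at least 500-fold higher in arr12 (adjusted p = 0.00139 from limma). A_84_P21298 was at least 45.3-fold higher in arr12 than in WT (adjusted p = 0.000157), again with a like signal in every mutant. Both probes separated WT from all mutants, those with ARR12 included.

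For 3 calls both arr12 arrays lay above all other untreated arrays, beside 0.37% of all probes. One of them, A_84_P754101, was well above background in arr12 alone, at 4.70 and 4.41, and was tested only through it. A_84_P849700 read 13.87 and 13.63 in arr12, against 11.38 and 11.18 in WT, and A_84_P849705 read 10.67 and 10.27 in arr12, against 8.01 and 8.03 in WT. Both were higher in arr12 by 2.47 and 2.45 (SE 0.10 and 0.13, adjusted p = 0.00223 and 0.00749 from limma), and neither was higher in arr10/12, which read 10.88 and 10.81 and 7.86 and 7.54. NAC019 (AT1G52890), a transcription factor of the drought and abscisic acid response, read 4.54 and 5.85 in arr12, against 7.15 and 7.80 in WT, a log2 fold change of −2.28 (SE 0.17, adjusted p = 0.0403). In arr10/12 it read 5.95 and 6.81, against 5.86 and 7.02 in arr10, so that the arrays overlapped, and mock-treated WT read 5.48 and 6.72.

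The calls in arr10/12 against arr10 were mainly probes on which arr10/12 stood alone. For 21 of the 26 both arr10/12 arrays lay outside the range of the other 6, beside 14.3% of all probes. Of the 26, 14 were well above background in arr10/12 alone and so were tested only through the genotype where they are high. They had to differ, and without the filter on dim probes the calls were 4 higher and 2 lower. VOZ2 (AT2G42400), a transcription factor with a zinc finger, was one of the 3 named genes among them, with ARR12 and AT2G21980. It read 10.16 and 10.26 in arr10/12, against 12.18 and 12.09 in arr10, and 12.24 and 11.90 in arr12, against 12.12 and 12.06 in WT. The log2 fold change was −1.92 without ARR10 (SE 0.13, adjusted p = 0.0218 from limma) and −0.02 with it, and the difference between both did not pass the test over all probes (−1.90, 95% interval −2.35 to −1.46, adjusted p = 0.0782). VOZ2 was at 10.15 and 10.12 in arr1/10/12 and at 11.96 and 11.97 in arr1/10, so that it was low in both genotypes that lack ARR10 and ARR12 together. On the 16 untreated arrays these genotypes stood apart from all others for 4 of the 26 calls, beside 0.685% of all probes. VOZ2, A_84_P750271, and A_84_P862538 were lower there, and A_84_P788930 was higher. A_84_P807083 was at 7.56 and 7.36 in arr10/12 and not well above background in arr10, arr12, or WT, at least 21.1-fold higher than in arr10, and is one of these 14 probes.

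The difference between both ARR12 effects was called for 18 probes (0.0542%), with 10 higher (0.0301%) and 8 lower (0.0241%), and 4 of them had a gene name. These were AT3G28899 (4.03, SE 0.30, adjusted p = 0.0331), AT5G24240 (2.94, SE 0.23, adjusted p = 0.0445), LCR83 (AT5G54225), and AT2G21980. LCR83, a small cysteine-rich protein of the defensin-like family, read 2.71 and 2.63 in arr12, against 5.63 and 5.51 in WT, and was well above background in WT alone, so that it was at least 4.86-fold lower in arr12 than in WT (adjusted p = 0.014 for the difference between both effects). AT2G21980, a protein of unknown function, read 5.39 and 5.69 in arr10/12, against 2.90 and 3.33 in arr10, where it was not well above background (adjusted p = 0.0248 for the difference). LCR83 and AT2G21980 were tested only through the genotype where they are high. WT stood apart from the other 6 arrays for 7 of the 18 probes, beside 13.1% of all probes. The same held for arr10/12 with 9, beside 14.3%, and for arr12 with 2, beside 2.69%. The 18 were called on the same arrays, so these counts are a description. Without a filter on dim probes 1 of these 18 calls was left, and without either arr10 array 1 was left too.

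**Figure D5:**
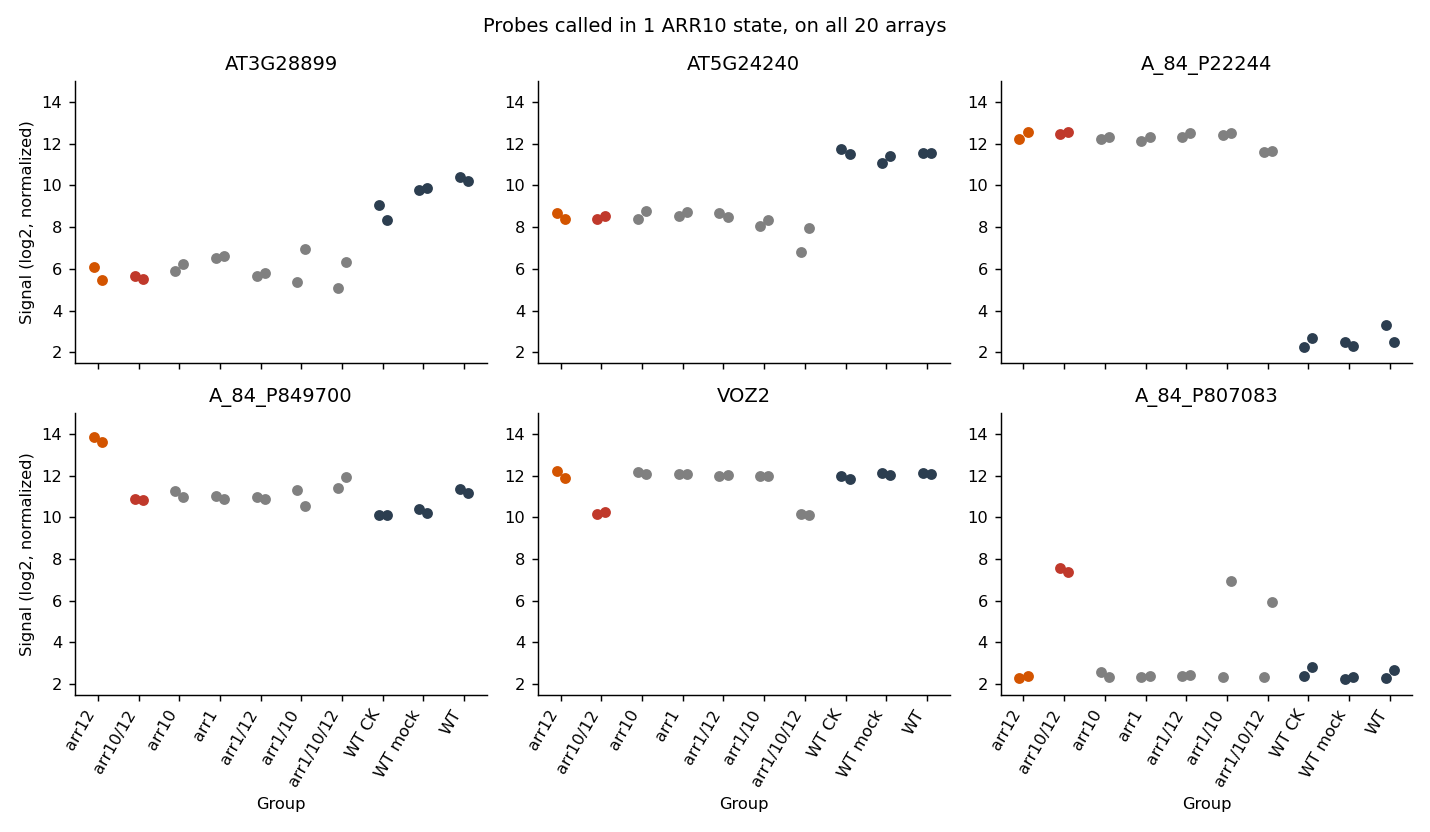
Log2 signal (y axis) of 6 probes called in 1 ARR10 state, on all 20 arrays by group (x axis), with orange points for arr12, red for arr10/12, grey for the other mutants, and dark blue for WT. AT3G28899, AT5G24240, and A_84_P22244 separate all WT arrays from all mutant arrays, A_84_P849700 is high in arr12 alone, VOZ2 is low in arr10/12 and arr1/10/12, and A_84_P807083 is high in arr10/12 and on 1 array each of arr1/10 and arr1/10/12.

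Beyond the calls as well, WT and arr10/12 stood apart on more probes than arr12 and arr10 did. Both arrays of arr10/12 lay outside the range of the other 6 for 4710 probes (14.3%) and both WT arrays for 4318 (13.1%), whereas this was so for 890 probes (2.69%) in arr12 and 1640 (4.97%) in arr10. Such a count also depends on how alike the 2 arrays of a genotype are. Spearman's rho between them was 0.9898 for arr12, 0.9935 for WT, 0.9951 for arr10/12, and 0.9953 for arr10, and its part in the counts was not tested.

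The groups into which the study sorted its genes were described last, as counts and medians, because they were chosen on these arrays. Cluster 3 holds genes assigned to ARR12 alone among the 3 regulators, ARR12 itself included, and 102 of its 118 genes were tested. The median difference was −0.65 in arr12 against WT, the comparison close to the one that chose them, and −0.04 in arr10/12 against arr10, where 59 of 102 were lower, beside 51.7% of all probes. Only ARR12 among them was called for the ARR12 effect. Cluster 9 holds genes assigned to either ARR10 or ARR12, and 94 of its 96 genes were tested. Their median was −0.47 in arr10/12 against arr10 and −0.24 in arr12 against WT, with 88 of 94 lower in arr12 against WT, beside 52% of all probes. None was called for the ARR12 effect, and VOZ2, which belongs to this cluster, was called in arr10/12 against arr10. In Cluster 10, which stands for regulation by all 3 regulators and rests on changes in all single mutants, 27 were tested and the median was −0.99 in arr12 against WT and −0.07 in arr10/12 against arr10.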

How the data were processed

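Each root RNA sample was measured on its own one-colour Agilent array. The authors deposited for each array the scanner software's background-subtracted intensity of every spot, not normalized between arrays, with the local background and flags. A log2 value table, also deposited, was used as an alternative. On the 16 untreated arrays its values are median spot intensities after log2 and quantile normalization, to within 5e-09. The log2 of the intensity was quantile normalized across all 20 arrays, with control spots left out (61657 spots remained), spots marked as outliers (1 to 173 on the arrays used) were left out, and spots of a probe were averaged. No spot was saturated. With 2 arrays per genotype, described as biological replicates, the number of arrays limits the precision.

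The ARR12 effect was fitted with limma 3.58.1 under R 4.3.3 by two-sided moderated tests on 8 arrays with the ARR10 state and the replicate number as blocks, with 4 residual degrees of freedom. The effects within each ARR10 state and their difference came from a fit with 1 coefficient per genotype and the replicate block. Where every array of a genotype was not well above background, a fold is given as at least the ratio to the lowest signal well above background, or to the probe's own signal where that is higher. The replicate numbers pair the arrays by slide, and the deviations of replicate 1 from the genotype mean correlated by 0.21 to 0.46 over the 6 pairs of genotypes.

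The array files list probes and not genes. Genes were paired with probes through the study's gene table, whose fold changes served only to find the spot. For 2072 genes a single spot lay within 0.0005 of the listed fold changes, and no other spot came closer than 0.0227. The copy of that table used here was shortened. The named genes are ARR1, ARR10, and ARR12, the listed pathway and marker genes that could be paired, the called probes, the 5 probes with the largest difference in each direction, and the genes near ARR12. The genes of lowest p and the unnamed probes were added after their values were seen. The members and lists were chosen with earlier results of these data known. The background alternative used the median spot signal. The fits were tested on simulated data. Plots were drawn with matplotlib in Python.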

Additional observations from a re-analysis of the deposited data

Results flagged for a closer look

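The effect of ARR12 loss differed between both ARR10 states for 18 probes, by the test of the difference itself (arr10/12 minus arr10, less arr12 minus WT, limma, adjusted p under 0.05 over all probes). On the log2 scale it was higher without ARR10 for AT3G28899 (4.03), AT2G21980 (3.77), AT5G24240 (2.94), and LCR83 (2.91), and for the unnamed probes A_84_P807083 (5.13), A_84_P511413 (3.73), A_84_P758654 (2.76), A_84_P787892 (2.68), A_84_P10769 (2.60), and A_84_P526625 (2.56). It was lower for A_84_P22244 (−9.23), A_84_P21298 (−6.70), A_84_P172991 (−3.99), A_84_P849705 (−2.79), A_84_P849700 (−2.73), A_84_P861784 (−2.37), A_84_P21521 (−2.07), and A_84_P22462 (−1.71). For 13 of the 18 at least 1 genotype was not well above background, so these fitted differences are no bound on their size.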

How the results depend on the processing

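The ARR12 effect had 0 higher and 3 lower calls, and the same 3 probes were called with 75th percentile scaling, with quantile normalization over the 8 arrays, with normexp correction, with the authors' table, without a filter on dim probes, and without the replicate block, and 2 of them when every array had to pass the background limit. Leaving out each array gave 0 higher and 3 to 4 lower calls. With the 16 untreated arrays in 1 fit there were 26 higher and 37 lower calls, with the interaction term in the model 9 and 9, with array weights 0 and 5, with replicate 1 arrays alone 0 and 6, and with replicate 2 arrays alone 0 and 1. A plain Student's t-test of the 4 arrays without ARR12 against the 4 with it called 954 higher and 1167 lower at an unadjusted p of 0.05 or less. After Benjamini-Hochberg adjustment it called 0 and 2. This is only a part of the study's method, which combined permutation p-values of a t-test and of a log2 median ratio and added a fold cutoff. On replicate 2 arrays alone, A_84_P10661 and A_84_P767684 did not pass the test (adjusted p = 0.246 each).

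For arr12 against WT (6 higher, 10 lower) no filter gave 3 and 4 calls, and leaving out each array gave 3 to 10 higher and 2 to 32 lower, with 3 and 2 without WT replicate 1, 6 and 4 without WT replicate 2, 4 and 6 without either arr10 array, 10 and 32 without arr12 replicate 1, and 9 and 28 without arr12 replicate 2. For arr10/12 against arr10 (17 higher, 9 lower) no filter gave 4 and 2, no replicate block 25 and 7, and leaving out each array 2 to 34 higher and 2 to 9 lower, with 8 and 3 without either WT array, 8 and 8 without either arr12 array, 4 and 6 or 2 and 2 without arr10 replicate 1 or 2, and 31 and 4 or 34 and 9 without arr10/12 replicate 1 or 2. For the difference of both effects (10 higher, 8 lower) no filter gave 0 and 1, the 16 untreated arrays 25 and 19, and leaving out each array 0 to 32 higher and 1 to 8 lower, with 0 and 1 without either arr10 array, 2 and 3 or 5 and 3 without WT replicate 1 or 2, 32 and 8 or 20 and 7 without arr12 replicate 1 or 2, and 17 and 3 or 7 and 3 without arr10/12 replicate 1 or 2. All 18 probes called for it kept their sign in these fits. The cause of these shifts was not tested.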
